A study of Mus musculus with 48 samples.

Results

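The 10 genes described here encode enzymes that build triglyceride and the glycerol 3-phosphate on which it is assembled in subcutaneous white adipose tissue (sWAT). They were taken by gene name from the count table, Pck1, Gpd1, Gpam, Gpat3, Gpat4, Agpat2, Agpat3, Lpin1, Dgat1 and Dgat2, out of 54532 genes in all, and all 10 were among the 19977 genes with enough counts to be tested. The tissue was the inguinal depot (iWAT in the labels) of C57BL/6 mice (C57BL/6J by the study's methods) aged 8 months. Control mice ate ad-lib, and TAN mice had food from 9 to 11 PM and from 5 to 7 AM, in a dark cycle that ran from 8 PM to 8 AM. Mice of both groups were male and on regular chow by the study's methods, and the labels name no engineered allele in either. Each diet was sampled at 6 times, with 4 libraries per diet and time and 48 in all, and each library held 15636378 to 29913310 counts.

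Adipocytes store fatty acids by joining them to a glycerol backbone. White fat has little glycerol kinase, so the backbone comes either from glucose or, when glucose is short, from pyruvate and lactate by glyceroneogenesis. Pck1 (phosphoenolpyruvate carboxykinase) catalyzes the rate-limiting step of glyceroneogenesis, and Gpd1 (glycerol-3-phosphate dehydrogenase) makes glycerol 3-phosphate. The acyltransferases encoded by Gpam, Gpat3 and Gpat4 add the first fatty acid, those of the Agpat family add the next, Lpin1 (a phosphatidic acid phosphatase) removes the phosphate, and Dgat1 and Dgat2 add the last fatty acid. Loss of AGPAT2 in people causes congenital generalized lipodystrophy.

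The series text names the stromal vascular fraction, from which mature adipocytes are absent, and the study's methods describe whole tissue. All 8 adipocyte markers (Adipoq, Plin1 and others) were above 0 in every library, at a summed 8699 to 66042 CPM (counts scaled to a library size adjusted by TMM factors). The libraries also differed in their lymphocyte markers, whose sum over 10 genes ran from 7.96 to 2502 CPM, and 3 libraries (ad-lib 4AM replicate 3, ad-lib 12PM replicate 3 and TAN 12PM replicate 1) held 1805 to 7448 CPM of skeletal muscle markers. The share of mitochondrial counts was 3.41 to 11.9%. In bulk tissue, fewer cells of a type and less RNA per cell cannot be told apart. A second listing of the libraries by the study names each for the opposite time of day from its label. The labels were kept, and by them the clock gene Dbp was highest at 4PM (102 ± 19.9 CPM in ad-lib and 154 ± 58.0 in TAN mice, mean ± SD, n = 4) and Arntl at 8AM (32.3 ± 9.59 and 46.0 ± 4.60 CPM). In mouse tissues Dbp is known to be highest late in the light phase and Arntl around its start.

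The promoters of Agpat2 and Pck1 are shown because these genes carried 2 different results, a TAN difference in the daily mean for Agpat2 and a 12-h curve in TAN mice for Pck1. Each sequence is the 250 bases before the RefSeq transcription start (GRCm38.p6), read 5′ to 3′ on the gene's strand. Capitals mark matches, on either strand, to the GC box (GGGCGG) and the core of the cAMP response element (CGTCA).

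Agpat2, chr2:26604418-26604667, minus strand: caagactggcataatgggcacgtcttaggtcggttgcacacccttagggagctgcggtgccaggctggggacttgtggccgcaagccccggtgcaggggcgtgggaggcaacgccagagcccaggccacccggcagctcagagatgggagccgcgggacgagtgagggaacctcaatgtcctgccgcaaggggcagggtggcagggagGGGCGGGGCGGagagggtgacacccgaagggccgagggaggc

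Pck1, chr2:173152823-173153072, plus strand: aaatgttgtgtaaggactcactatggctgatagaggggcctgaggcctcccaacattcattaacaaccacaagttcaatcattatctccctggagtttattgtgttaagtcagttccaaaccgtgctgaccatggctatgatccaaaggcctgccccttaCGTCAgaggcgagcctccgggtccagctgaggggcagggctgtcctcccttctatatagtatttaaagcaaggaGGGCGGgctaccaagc

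The Agpat2 window was 69.2% G and C and held 2 overlapping GC boxes, at bases 42 to 37 and 37 to 32 before the start. The Pck1 window was 50.8% G and C and held the CGTCA core at bases 90 to 86 and 1 GC box at bases 16 to 11. Of 32851 mouse promoter windows of this length, 32.7% held a GC box and 17.8% the core. Neither window held the E-box CACGTG, present in 6.02% of windows, the D-box TTATGTAA, in 0.819%, or the full element TGACGTCA, in 1.55%.

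Per kilobase of gene model, Dgat2 was the most abundant of the set in both diets. Its mean over all times was 462 ± 212 CPM per kb in ad-lib mice and 758 ± 382 in TAN mice (SD, n = 24 libraries). In ad-lib mice Pck1 (263 ± 140.4), Agpat2 (225 ± 83.7) and Gpd1 (175 ± 81.1 CPM per kb) came next, followed by Dgat1 (80.7 ± 28.2). Gpam, Gpat3, Gpat4, Lpin1 and Agpat3 lay between 19.3 and 32.0 CPM per kb. Neighbours in this order were often not separated, since Gpam exceeded Gpat3 in 12 of 24 ad-lib libraries and Pck1 exceeded Agpat2 in 15. In TAN mice Agpat2 stood second, at 462 ± 264 CPM per kb, ahead of Pck1 (316 ± 176) in 17 of 24 libraries. Pck1 and Gpd1 (305 ± 126) could not be ordered there, with Pck1 higher in 11 of 24.

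**Figure D1:**
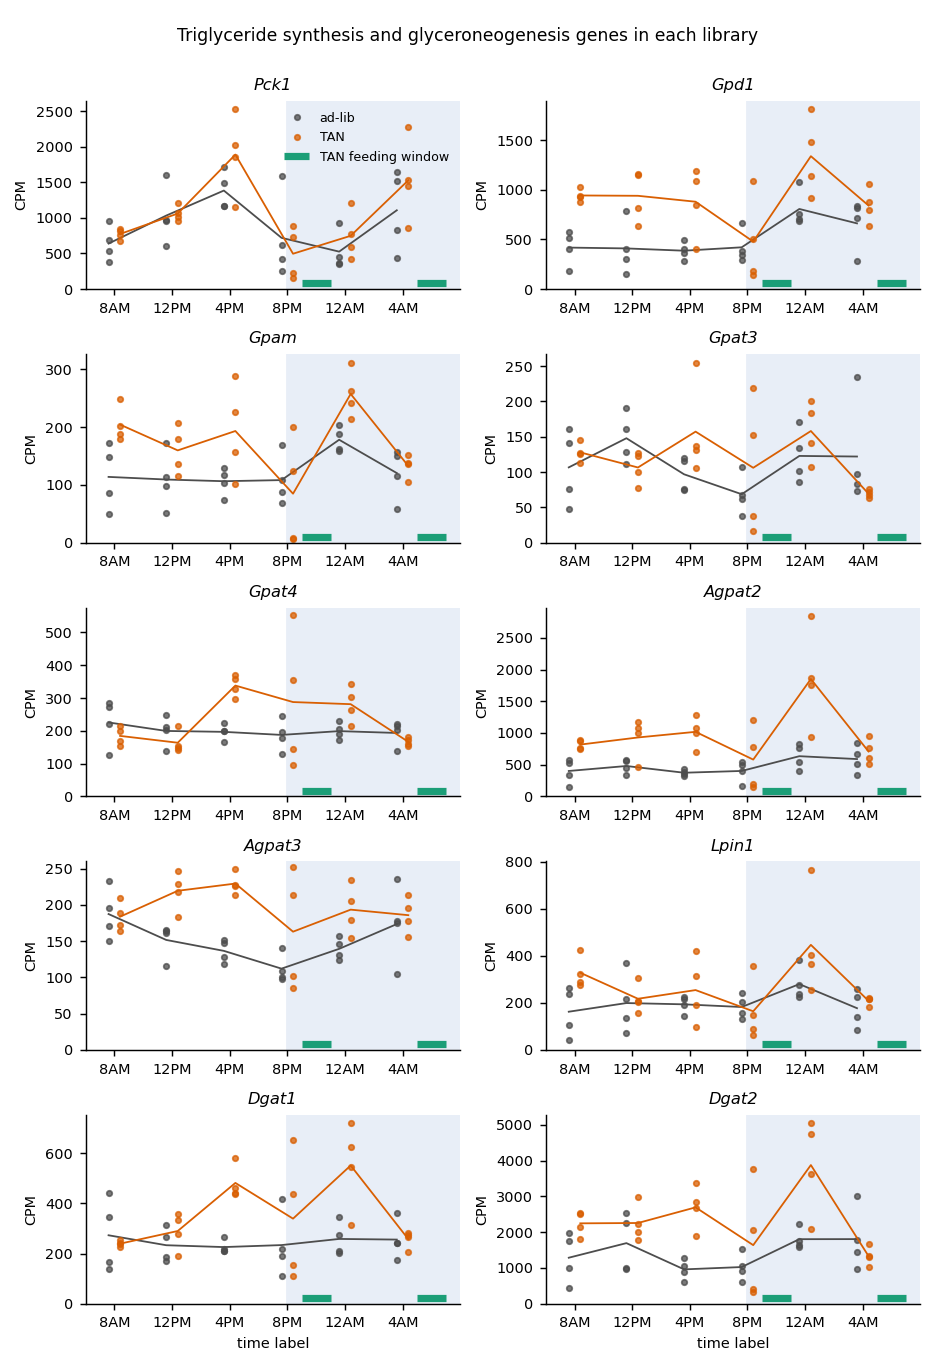
CPM of each gene (y axis) at each time label (x axis); grey points are ad-lib and orange points TAN libraries, 4 per group, lines join group means, the blue band is the dark phase and green bars are the TAN feeding windows. Pck1 peaked at 4PM and again at 4AM, most other genes of TAN mice peaked at 12AM, and at 8PM the TAN libraries split into a low and a high pair.

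Pck1 (chr2:173153048-173159273, plus strand, GRCm38) had a daily course unlike that of the other genes. In TAN mice it read 1857, 2017, 1149.7 and 2528 CPM at 4PM, 223, 153, 879 and 729.7 at 8PM, and 2275, 1449, 1535 and 852 at 4AM. The 4PM libraries did not overlap those at 8PM, and the 4AM libraries overlapped 8PM only through the lowest of the former. Its mean was 3.80 times as high at 4PM (1888 ± 569 CPM, SD, n = 4) as at 8PM (496 ± 362). It was 773 ± 71.3 CPM at 8AM, after the second feeding window, and 748 ± 335 at 12AM, after the first. In ad-lib mice Pck1 was also highest at 4PM, at 1168, 1487, 1167 and 1711 CPM, and lowest at 12AM, at 455, 355, 359.9 and 934 CPM, without overlap. The ratio of these means was 2.63. In each diet the times set against each other here were picked for their high and low means. How many of all genes separate in this way was not counted.

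Variation of Pck1 over the 6 times passed the test in TAN mice (F = 4.63, adjusted p = 0.0192, edgeR quasi-likelihood test with Benjamini-Hochberg adjustment over all tested genes), where 23% of all genes passed. In ad-lib mice it did not (unadjusted p = 0.0403, adjusted p = 0.719), and there 0.0551% of genes passed. A 12-h rhythm with a log2 amplitude of 0.85 and a fitted peak at 3.31 h after each noon and midnight passed in TAN mice (adjusted p = 0.0303, background 2.07% of genes). The fitted ad-lib amplitude was 0.54, with a peak at 3.76 h (unadjusted p = 0.0208, adjusted p = 1, background 0.015%). The difference between the 2 fitted 12-h curves was 0.35 in amplitude and did not pass (adjusted p = 0.885). Over all genes 0 passed that test in edgeR, 3 in DESeq2 and 1 in limma voom. The 12-h call in TAN mice was lost in 10 of 24 fits that left out 1 TAN library, in the fits with no filter on low counts, with lymphocyte markers as a covariate or with TAN mice fitted alone, and without TAN 8PM replicates 1 and 2. In edgeR Pck1 did not pass for a diet effect at any time, with log2 fold changes from -0.54 to 0.51, or in the mean of the 6 times.

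Gpd1 (chr15:99717515-99725005, plus strand), which supplies glycerol 3-phosphate from the glycolytic intermediate, was higher in TAN mice in the mean over the day. At 8AM it read 877, 929.8, 933 and 1029 CPM in TAN mice and 573, 516, 182 and 400.2 in ad-lib mice, without overlap. At 12PM the values were 1144, 813, 639 and 1160.3 in TAN against 298, 154, 784 and 401 CPM in ad-lib mice, where 1 ad-lib library, the one with 3102 CPM of muscle markers, reached the TAN range. Averaged over the 6 times, Gpd1 was higher in TAN by a log2 fold change of 0.80 (SE 0.18, 95% CI 0.44 to 1.17, adjusted p = 0.00775). Its log2 fold change of 1.17 at 8AM and 1.20 at 12PM reached unadjusted but not adjusted significance (adjusted p = 0.682 and 0.579), and that of 1.19 at 4PM came closest (adjusted p = 0.0620). The daily mean call held in all 48 fits that left out 1 library. With libraries scaled on 4 adipocyte markers (Adipoq, Plin1, Cidec and Fabp4) instead, the fold change was 0.44 (adjusted p = 0.082). The median of all genes was then -0.37, and relative to it Gpd1 was higher by 0.82.

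The ratio of Gpd1 to Pck1 moved with the hour in both diets. Per kilobase it was lowest in ad-lib mice at 4PM (0.27 to 0.38) and highest at 12AM, with medians of 2.02 in ad-lib and 2.27 in TAN mice. At 8AM it was 1.28 to 1.57 in TAN and 0.49 to 1.11 in ad-lib mice, without overlap.

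Of the 3 genes for the first acylation, only Gpat4 passed for variation over time in TAN mice in edgeR. Whether their time courses differed from each other was not tested. Gpat4 (chr8:23171265-23208346, minus strand), which encodes an enzyme of the endoplasmic reticulum, was even across the day in ad-lib mice, with group means between 187 and 225 CPM. In TAN mice it read 140.2, 153, 147 and 213 CPM at 12PM and 370.0, 327, 296 and 359 CPM at 4PM, without overlap, and 159.6, 155, 180.5 and 170.4 CPM at 4AM. The 12PM and 4PM groups had its lowest and highest means, and how many of all genes separate so was not counted. Its variation over time in TAN mice passed (F = 4.80, adjusted p = 0.0168) and did so in 24 of 24 fits that left out 1 TAN library. It was not called with scaling on adipocyte markers, with lymphocyte markers as a covariate or with TAN mice fitted alone. Gpat4 had a 24-h rhythm in TAN mice of log2 amplitude 0.52, with a fitted peak at hour 19.5 (adjusted p = 0.00899, background 19.8% of genes), a call lost with scaling on adipocyte markers, with lymphocyte markers as a covariate and without TAN 8PM replicate 4. The 24-h curves of the 2 diets differed for Gpat4 by an amplitude of 0.60 (adjusted p = 0.0299, background 20.2%). That difference was not called with scaling on adipocyte markers, with limma voom, with lymphocyte markers alone or with adipocyte markers as covariates, or in 5 of 48 fits without 1 library. The test of whether the diet effect changed over the 6 times gave adjusted p = 0.121 for Gpat4, and 0 of the 10 genes passed it, where 8.98% of all genes did (1 of the 10 at unadjusted p under 0.05, and 1 of the 10 by DESeq2).

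Gpam (chr19:55069734-55099451, minus strand), the mitochondrial isoenzyme of this step, stood at 7.09 and 8.14 CPM in TAN 8PM replicates 1 and 2, where replicates 3 and 4 held 123 and 200.2 CPM. In no other library was it below 49.3 CPM. At 8AM it read 179, 188, 248 and 202 CPM in TAN against 173, 147, 49.3 and 85.1 in ad-lib mice. At 12AM it read 214, 311, 262 and 242 in TAN against 203, 159, 188 and 161 CPM in ad-lib mice. The groups did not overlap at these 2 times, but Gpam passed no test of diet in edgeR (log2 fold changes from -0.35 to 0.86). Gpat3 (chr5:100845713-100899102, plus strand), which encodes a second microsomal enzyme of the step, passed no test in edgeR either. At 4AM it read 67.8, 62.9, 75.7 and 71.2 CPM in TAN mice, the lowest mean of the 6 TAN groups, and 1 ad-lib library of that time, with 7448 CPM of muscle markers, stood at 234 CPM and the other 3 at 73.4 to 97.5. As a share of the 3 genes per kilobase, Gpat4 made up 21.4 to 26.1% in TAN and 30.8 to 41.4% in ad-lib mice at 8AM. At 8PM its share was 63.6 and 68.1% in TAN replicates 1 and 2 and 41.3 and 41.9% in replicates 3 and 4. In ad-lib mice it was 33.0 to 39.9% at that time.

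Agpat2 (chr2:26593057-26604417, minus strand), the main isoenzyme of the second acylation in adipocytes, had the largest diet effect of the set in the daily mean. At 8AM it read 759, 895, 739.8 and 874 CPM in TAN against 579.9, 338, 151 and 531 in ad-lib mice. At 4PM it read 705, 1001, 1076 and 1291 in TAN against 354, 439, 314 and 382 CPM in ad-lib mice. At 12AM it read 939, 2843, 1873 and 1755 in TAN against 761, 829, 539 and 404 CPM in ad-lib mice. All 4 TAN libraries were above all 4 ad-lib libraries at each of these 3 times, whereas the groups overlapped at 12PM, 8PM and 4AM. In the mean of the 6 times Agpat2 was higher in TAN mice by a log2 fold change of 0.96 (SE 0.18, 95% CI 0.60 to 1.33, adjusted p = 0.000978). This call held in 48 of 48 fits without 1 library and with scaling on adipocyte markers (0.61, adjusted p = 0.00313).

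By time, Agpat2 passed at 4PM (log2 fold change 1.45, SE 0.44, 95% CI 0.55 to 2.35, adjusted p = 0.0278). The fitted difference was as large at 12AM (1.55, adjusted p = 0.118) and smaller at 8AM (1.03, adjusted p = 0.697) and 12PM (0.96, adjusted p = 0.641), none of which passed. Agpat2 also varied over time in TAN mice (F = 3.82, adjusted p = 0.0358). Its mean there was 3.19 times as high at 12AM as at 8PM, and the time call was lost without TAN 8PM replicate 1 or TAN 12AM replicate 2, 3 or 4, with no filter, with the lymphocyte covariate and with TAN mice fitted alone.

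Agpat3 (chr10:78269178-78352489, minus strand), whose enzyme acylates lysophosphatidic acid and other lysophospholipids, changed less. Its spread was small at 4PM but not in every group, with 85.0 to 252 CPM at TAN 8PM and 105 to 236 at ad-lib 4AM. At 4PM it read 227, 226, 249.8 and 214 CPM in TAN and 128, 151, 119 and 148 in ad-lib mice, a log2 fold change of 0.75 (SE 0.23, 95% CI 0.29 to 1.21, adjusted p = 0.0278). At 12PM the 4 TAN libraries (229, 218, 183 and 247 CPM) were also above the 4 ad-lib libraries (164, 116, 166 and 161), by 0.53 on the log2 scale (adjusted p = 0.610). The daily mean differed by 0.39 (SE 0.093, 95% CI 0.21 to 0.58, adjusted p = 0.0107), in 48 of 48 fits without 1 library. Scaled on adipocyte markers, that mean difference was 0.07 (adjusted p = 0.72). The median of all genes was then -0.37, and relative to it Agpat3 was higher by 0.44. The ratio of Agpat2 to Agpat3 per kilobase was 14.3 to 19.0 in TAN and 3.67 to 10.9 in ad-lib mice at 8AM, and 11.4 to 22.0 against 9.44 to 10.6 at 4PM, without overlap at either time.

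**Figure D2:**
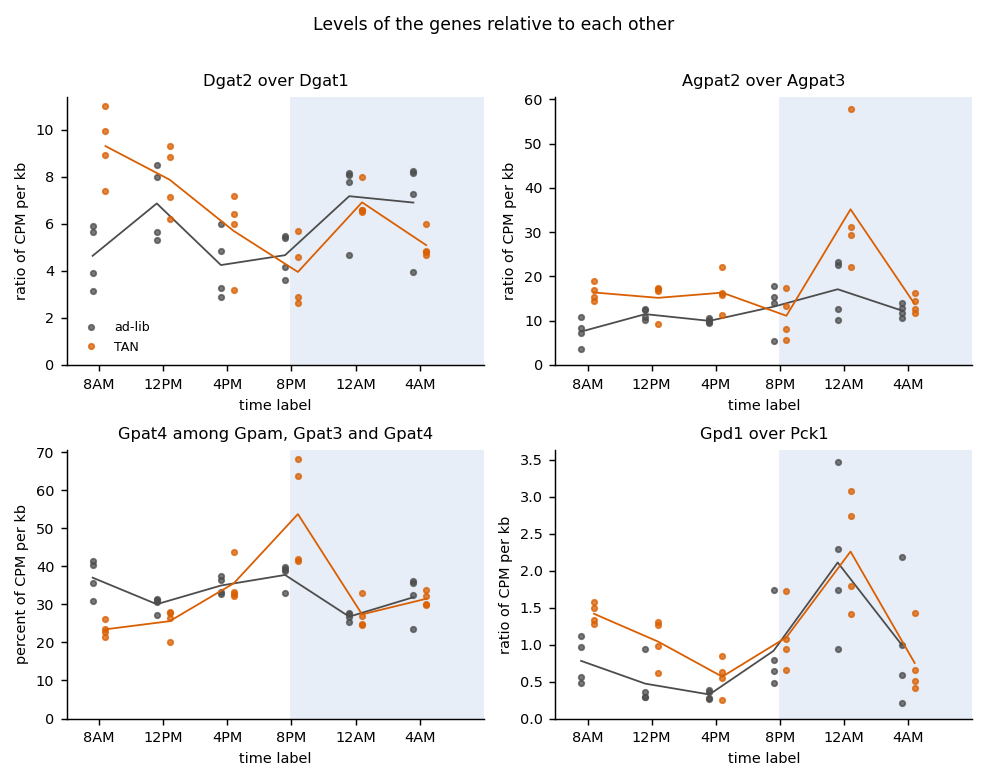
Ratios or percent of CPM per kb within each library (y axes) at each time label (x axis), ad-lib in grey and TAN in orange, 4 libraries per group with lines through group means and the dark phase shaded. At 8AM the TAN libraries stood above ad-lib for Dgat2 over Dgat1, Agpat2 over Agpat3 and Gpd1 over Pck1, and below ad-lib for the Gpat4 share.

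Lpin1 (chr12:16535669-16610966, minus strand), which makes diacylglycerol and also acts as a transcriptional coactivator, passed no test of diet or time in edgeR. At 8AM it read 277, 424, 323 and 288 CPM in TAN against 239, 262, 40.6 and 108 in ad-lib mice, without overlap, but the log2 fold change of 1.01 had an adjusted p of 0.739. Its mean was highest at 12AM in both diets, at 447 ± 222 CPM in TAN and 279.8 ± 71.3 in ad-lib mice (SD, n = 4), and these groups overlapped.

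Dgat1 (chr15:76502015-76511953, minus strand) and Dgat2 (chr7:99153658-99182719, minus strand) encode unrelated enzymes that both complete triglyceride, and both were higher in TAN mice at 4PM. Dgat2 read 1880.2, 2841, 2674 and 3369 CPM in TAN against 879, 1274, 612 and 1059 in ad-lib mice, a log2 fold change of 1.49 (SE 0.49, 95% CI 0.51 to 2.48, adjusted p = 0.0356). Dgat1 read 584, 439, 442 and 464 CPM in TAN against 266, 211, 209 and 217 in ad-lib mice, a log2 fold change of 1.10 (SE 0.38, 95% CI 0.32 to 1.87, adjusted p = 0.0462). No TAN library of either gene was as low as any ad-lib library at this time. At 12AM Dgat2 read 2091, 4735, 5039 and 3635 CPM in TAN against 1636, 2234, 1742 and 1591 in ad-lib mice (log2 fold change 1.11, adjusted p = 0.228). Dgat1 differed there by 1.10 (adjusted p = 0.157). Both genes had 1 TAN library inside the ad-lib range, replicate 1.

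Apart from the tests at single times, Dgat1 and Dgat2 were called in different tests. In the mean of the 6 times Dgat2 passed (0.68, SE 0.20, 95% CI 0.28 to 1.07, adjusted p = 0.0359) and Dgat1 did not (0.48, adjusted p = 0.0585). Whether they differed from each other was not tested. Dgat2 passed in 35 of 48 fits without 1 library. Dgat1 varied over time in TAN mice (F = 3.49, adjusted p = 0.0463), a call kept in 8 of 24 such fits and lost with no filter, adipocyte scaling, marker covariates for lymphocytes or both cell types, and TAN mice fitted alone. At 8AM there were 7.40 to 11 units of Dgat2 per unit of Dgat1 in TAN mice and 3.13 to 5.91 in ad-lib mice, per kilobase, without overlap.

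Taking the 10 genes by time, 4 of them (Agpat2, Agpat3, Dgat1 and Dgat2) passed as higher in TAN mice at 4PM, where 6.54% of all tested genes passed as higher and 8.77% as lower. All 10 had fitted differences above 0 at this time, with a median log2 fold change of 0.82 where the median of all genes was -0.09, although 7 of the 10 were below 0 when libraries were scaled on adipocyte markers. Gpat4 came close (log2 fold change 0.78, adjusted p = 0.0638), and its TAN and ad-lib libraries did not overlap. Thus 5 of the 10 had every TAN library above every ad-lib library at 4PM, against 12.8% of all genes. At 8AM 4 of the 10 did so (Gpam, Agpat2, Lpin1 and Gpd1), against 2.03% of all genes, at 12PM 1 (Agpat3), against 3.3%, and at 12AM 2 (Gpam and Agpat2), against 3.59%. At 8PM and 4AM 0 did, against 4.55% and 1.91%. In 0 of the 6 times was any of the 10 lower in every TAN library.

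In the mean of the 6 times Agpat2, Agpat3, Dgat2 and Gpd1 passed as higher, 4 of 10, where 2.68% of all genes passed as higher and 2.74% as lower. At 8AM, 12PM, 8PM, 12AM and 4AM 0 of the 10 passed in edgeR in either direction. Few of all genes passed at most of these times, 0.01% as higher and 0.00501% as lower at 8AM, 0.0851% and 0.00501% at 12PM, 3.76% and 7.91% at 8PM, 0.125% and 0.025% at 12AM, and 0% and 0% at 4AM. The numbers of the 10 with an unadjusted p under 0.05 at these times were 3, 3, 2, 4 and 0, all higher in TAN. Of all 19977 genes, 591, 917, 1995, 1598 and 180 were so as higher and 723, 556, 3592, 1894 and 347 as lower. Other tools called 1 gene each, DESeq2 Agpat2 at 12AM and limma voom Gpam at 8PM. In edgeR the log2 fold change was 1.55 for the former and -0.35 for the latter, which was thus lower in TAN. Over all genes DESeq2 called 394 as higher and 168 as lower at 12AM, and limma voom 813 and 2900 at 8PM. At 4AM the fitted differences ran from -0.81 to 0.47. Over time in TAN mice 4 of the 10 passed (Gpat4, Agpat2, Dgat1 and Pck1, background 23%), and in ad-lib mice 0 did in edgeR or DESeq2 (2 of the 10, Agpat3 and Pck1, at unadjusted p under 0.05). A 24-h curve passed in ad-lib mice for 0 of the 10 in edgeR or DESeq2 (2 of the 10, Agpat3 and Gpd1, at unadjusted p under 0.05), with a background of 0.0801%.

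**Figure D3:**
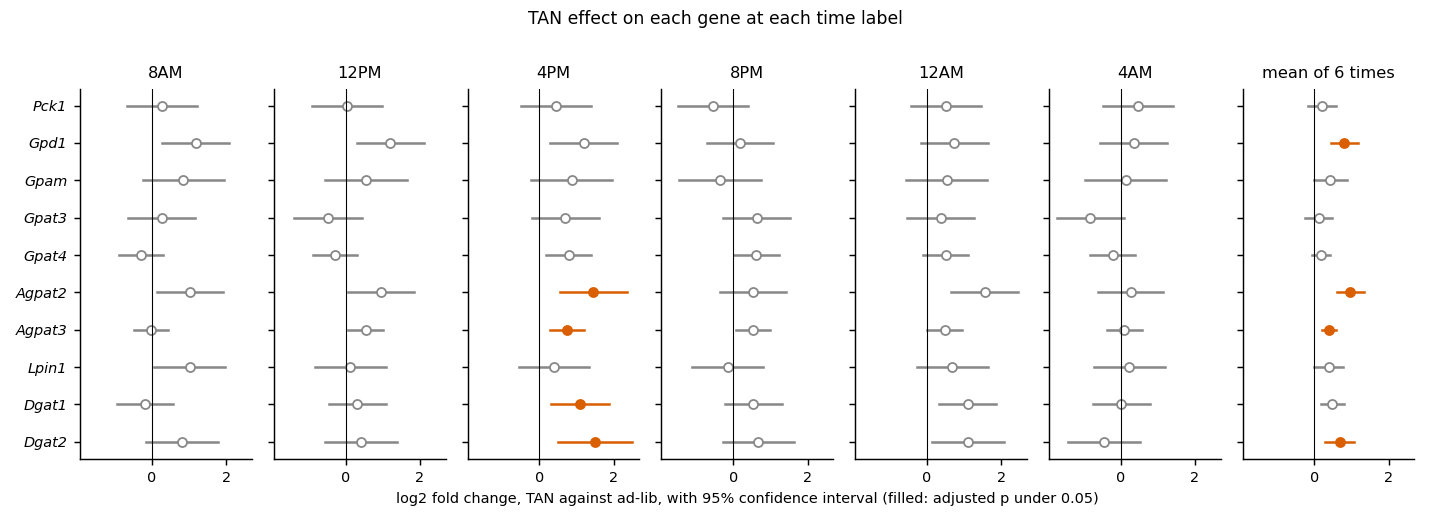
Log2 fold change of each gene, TAN against ad-lib (x axis), at each time label and in the mean of the 6 times (panels), with bars for 95% confidence intervals and filled points for adjusted p under 0.05. With the scaling shown, all 10 points lay above 0 at 4PM (7 of the 10 were below 0 when scaled on adipocyte markers), Agpat2, Agpat3, Dgat1 and Dgat2 passed at 4PM, and in the mean Agpat2, Agpat3, Dgat2 and Gpd1 passed.

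Cell type markers moved with the 4PM difference. The 10 lymphocyte markers summed to 901 to 1589 CPM in the 4 ad-lib libraries and to 9.56, 18.5, 34.5 and 317 CPM in the TAN libraries, all 10 had a fitted difference below 0 (median log2 fold change -3.63) and 3 of 10 passed as lower. The 8 adipocyte markers summed to 17429 to 24731 CPM in ad-lib and 38011 to 66042 in TAN mice, all 8 were above 0 (median 1.06) and 2 passed as higher. Of the brown and beige adipocyte markers 3 of 6 passed as higher, and 1 of 8 macrophage, 1 of 8 progenitor and endothelial, and 1 of 4 tested mammary epithelial markers passed as lower, with 0 of 10 muscle markers passing. With lymphocyte markers as a covariate the 4 log2 fold changes were 0.73 (Agpat2), 0.41 (Agpat3), 0.36 (Dgat1) and 0.53 (Dgat2), and 0 of all genes passed at 4PM (adjusted p from 0.43 to 0.66 for these 4). With libraries scaled on 4 adipocyte markers, which moved the median of all genes to -1.26, 7 of the 10 turned negative, among them Agpat3 (-0.44), Dgat1 (-0.14) and Gpat4 (-0.40), while Agpat2 (0.35), Dgat2 (0.43) and Gpd1 (0.16) stayed above 0. Relative to that median, Agpat2 was higher by 1.60, Dgat2 by 1.68, Dgat1 by 1.11, Gpat4 by 0.85 and Agpat3 by 0.82. Because both marker sums separated the diets without overlap at 4PM, these fits cannot tell diet and cell mixture apart there. The part of cell composition in the 4PM result was not tested. At 8AM adipocyte markers summed to 21690.4 to 27069 CPM in TAN and 17442 to 60629.9 in ad-lib mice, with 0 of 8 fitted differences above 0 (median -0.55), and lymphocyte markers to 957 to 1491 and 29.4 to 1974 CPM, with 10 of 10 above 0 (median 0.44). Macrophage (0 of 8, median -0.58) and muscle markers (0 of 10, median -2.55) were below 0 there, and 0 genes of these 4 lists passed at 8AM in edgeR (1 adipocyte marker had an unadjusted p under 0.05).

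Leaving out each of the 8 libraries of 4PM in turn left 0 to 3 of the 10 genes called. The same fits called 408 to 2451 of all genes, where the fit of all libraries called 1306 as higher and 1751 as lower. Agpat3 was kept in 4 of 8 such fits, Agpat2 in 3, Dgat2 in 1 and Dgat1 in 0, and Agpat2 ranged from 1.31 to 1.59 and Agpat3 from 0.71 to 0.81 on the log2 scale. 0 of the 10 passed without ad-lib replicate 1 or 3 or without TAN replicate 1, or with no filter on low counts. Of all genes, 2005, 408 and 647 were called in those fits without 1 library, in that order. With no filter 596 were called as higher and 1062 as lower.

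The TAN libraries of 8PM were of 2 kinds. Replicates 1 and 2 held 1526 and 1164 CPM of the 10 genes together, replicates 3 and 4 held 5639 and 9004, and the ad-lib libraries held 2057 to 5626. Agpat2 was at 191 and 153 CPM in the first pair and 776 and 1199 in the second, and Dgat2 at 412 and 320.4 against 2046 and 3758 CPM. Lymphocyte markers summed to 2378 and 2502 CPM in the first pair, above every ad-lib library of that time, and to 909.8 and 37.2 CPM in the second. Adipocyte markers summed to 13208 and 8699 CPM in the first pair and 44345 and 64712 CPM in the second. Progenitor and endothelial markers passed as lower for 4 of 8 genes at 8PM. The part of these differences in the values of the 10 genes was not tested.

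Without TAN 8PM replicates 1 and 2, an alternative chosen after the data were seen, 6 of the 10 passed as higher at 8PM. In that fit 996 of all genes passed as higher and 1349 as lower. The 2 libraries left out were the lowest TAN libraries of that time for the 10 genes together. The log2 fold changes were then 1.50 for Dgat2, 1.43 for Gpat3, 1.30 for Agpat2, 1.27 for Gpat4, 1.22 for Dgat1 and 1.05 for Agpat3 (adjusted p from 0.0042 to 0.037). With all 8 libraries only Gpat4 (0.62, adjusted p = 0.165) and Agpat3 (0.54, adjusted p = 0.109) had an unadjusted p under 0.05. At 12AM TAN replicate 1 stood apart in the same way, with 1415 CPM of lymphocyte markers where the other 3 held 11.9 to 341, and it was the lowest TAN library of that time for each of the genes except Pck1.

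**Figure D4:**
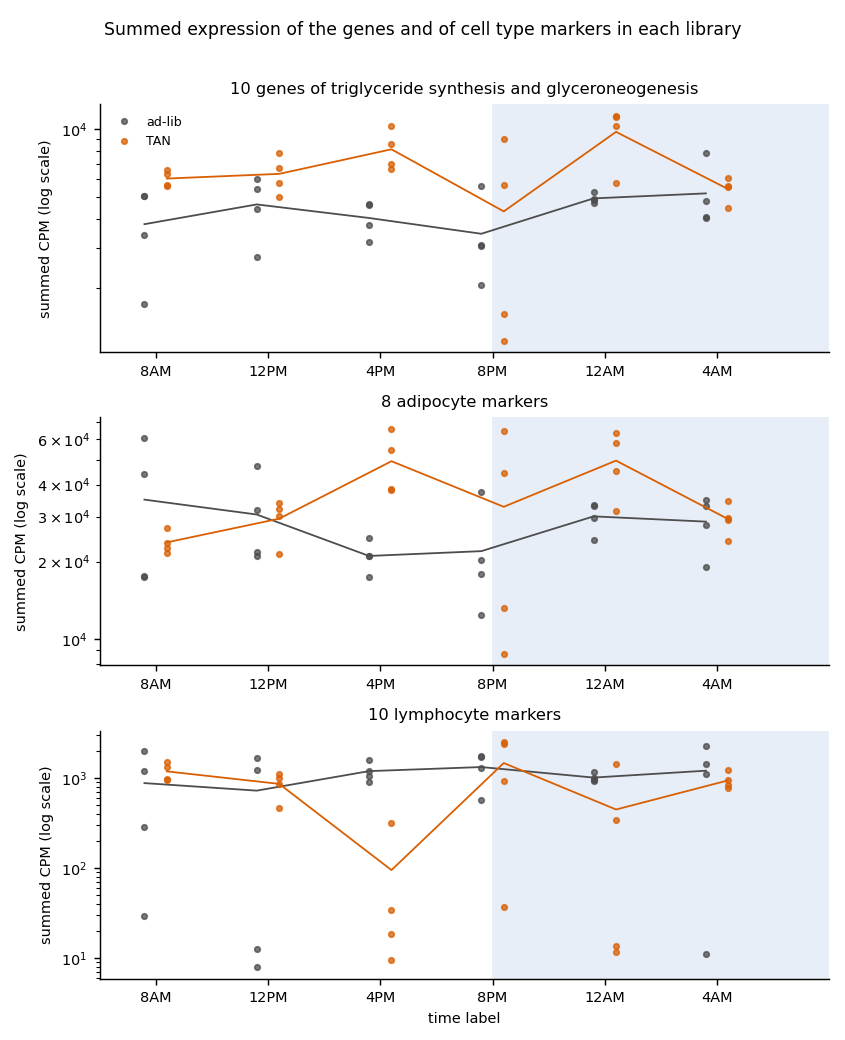
Summed CPM on a log scale (y axes) of the 10 genes, of 8 adipocyte markers and of 10 lymphocyte markers in each library at each time label (x axis), ad-lib in grey and TAN in orange, lines through group means, dark phase shaded. At 4PM the TAN libraries were high for the genes and adipocyte markers and low for lymphocyte markers, and at 8PM the 2 TAN libraries low for the genes were high for lymphocyte markers.

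Among other genes of the pathway, those that supply glycerol 3-phosphate and its precursors showed the most calls at 4PM. Of 10 such genes 5 passed as higher in TAN mice and 0 as lower (median log2 fold change 1.0), where 6.54% of all genes passed as higher and 8.77% as lower. None of the 4PM calls of these lists remained with lymphocyte markers as a covariate, as 0 of all genes then passed. Pcx (pyruvate carboxylase, which makes the oxaloacetate that PCK1 uses) was 1.58 higher (adjusted p = 0.0156) and Slc25a10 (the mitochondrial dicarboxylate carrier) 1.51 (adjusted p = 0.0204). Tpi1 (triosephosphate isomerase) was 1.39 higher (adjusted p = 0.0116), Gpd2 (the mitochondrial glycerol-3-phosphate dehydrogenase) 1.29 (adjusted p = 0.0252) and Mdh1 (cytosolic malate dehydrogenase) 1.26 (adjusted p = 0.0151). Pcx read 303 to 372 CPM in the ad-lib and 686 to 1358 in the TAN libraries. Pcx also passed at 12PM (2.03, adjusted p = 0.0339), and Pcx (1.04), Gpd2 (0.81) and Slc25a10 (0.74) passed in the mean of the 6 times.

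The other lists had fewer calls. Of 10 genes for acyl-CoA supply and droplet assembly, 1 passed at 4PM, Bscl2 (seipin, which shapes forming lipid droplets), by 1.07 (adjusted p = 0.0182), and the list's median was 0.59. This list shared Plin1 and Cidec with the adipocyte markers used for scaling. Of 12 other acyltransferases and phosphatases, 1 passed, Lpin2, which fell by 1.19 on the log2 scale (adjusted p = 0.0293), from 27.7 ± 6.98 CPM in ad-lib to 12.1 ± 7.23 in TAN mice (SD, n = 4). In the mean of the 6 times Agpat1 (0.31, adjusted p = 0.0290) and Mogat2 (1.78, adjusted p = 0.0137), which reached 4.83 ± 1.62 CPM in TAN mice at 4PM, passed as higher. Over time in TAN mice 3 of the 10 supply genes passed, where 23% of all genes did, among them Pdk4 (a kinase that inhibits pyruvate dehydrogenase, adjusted p = 0.00298). Like Pck1, Pdk4 was low at TAN 8PM (32.6 ± 27.3 CPM) and high at TAN 4AM (159 ± 45.2). At 8AM, 8PM, 12AM and 4AM 0 genes of these lists passed for diet in edgeR, with 0 to 6 per list and time at an unadjusted p under 0.05.

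Across the 12 group means, profiles of Agpat2, Dgat2 and Gpd1 were alike (Pearson r = 0.95 for Agpat2 with Dgat2 and 0.92 for Agpat2 with Gpd1), and Pck1 was unlike the other 9 (r from 0.08 to 0.49). These are descriptions over 12 points whose libraries share their cell mixtures. Of 14762 genes searched, those most like Dgat2 included Yjefn3 (0.97), Ldlrad3, Plin2 (a lipid droplet coat protein) and A530016L24Rik (0.96 each). Those most like Pck1 were Chst11 (0.91), Epor (0.90), Ubox5 (0.89), C1qtnf6 and Cd276 (0.88 each).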

How the data were processed

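RNA-seq of sWAT was analysed in 48 libraries (poly-A selected, paired-end reads by the labels). The authors deposited raw read counts per gene for each library, which sum to 15636378 to 29913310; counting error is therefore small beside the spread between libraries for these genes. A second deposited file of FPKM group means was not used. The submitters' processing notes name TopHat 1.3.3, DESeq2 1.20.0, limma and edgeR and the builds mm9, mm10 and GRCm38; whether counting used strand is not given in the sources used here. Gene starts and ends matched the GENCODE M21 annotation of GRCm38 for 98.3% of genes and for 9 of the 10 described (not Gpam, whose coordinates are those of the deposited table). Of the 10 genes 6 had promoters in the RefSeq table.

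Genes were filtered with filterByExpr (minimum count 10), scaled by TMM and fitted in 1 robust quasi-likelihood model of 12 groups in edgeR 4.0.16 (R 4.3.3). Each diet contrast per time, the mean of 6 contrasts, variation over time per diet, the interaction, and 24-h and 12-h harmonics were tested, with Benjamini-Hochberg adjustment over 19977 genes and a threshold of 0.05. CPM were not logged and used the TMM-scaled library sizes, with factors from 0.763 to 1.21. CPM per kb used the deposited gene length. The labels do not say that libraries came from separate mice, so p-values measure the spread between libraries.

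The 10 genes, the pathway lists, the markers and the tests were chosen with earlier results of these data known. Genes outside the set were named if called, or if among the 5 profiles most like Dgat2 or Pck1 over the 12 groups; 1 of these is not reported here. Alternatives were no filter, at least 10 counts in every library, RLE factors, scaling on 4 adipocyte markers, DESeq2 1.42.0, limma voom 3.58.1, a replicate block, marker covariates, separate fits, a fold limit and leaving out each library; 2 (without TAN 8PM replicates 1 and 2, and both marker covariates) were added after the data were seen. The fit was tested on simulated data. Replicate numbers did not pair the libraries. Per-library columns without a labelled sample numbered 0.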

Additional observations from a re-analysis of the deposited data

Results flagged for a closer look

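In 5 of 120 gene and group sets of 4 libraries, 1 library stood far from the other 3 by Dixon's test at the 95% level, which by chance marks about 5% of sets. Gpat3 was 234 CPM in ad-lib 4AM replicate 3, where the others held 73.4 to 97.5 CPM. Agpat3 was 116 CPM in ad-lib 12PM replicate 2, against 161 to 166 CPM. Lpin1 was 181 CPM in TAN 4AM replicate 2, against 215 to 219 CPM. Dgat1 was 266 CPM in ad-lib 4PM replicate 1, against 209 to 217 CPM, and 584 CPM in TAN 4PM replicate 1, against 439 to 464 CPM. The 24-h curve of Gpat4 differed between diets, with a log2 amplitude of the difference of 0.60 (edgeR quasi-likelihood test, adjusted p = 0.0299).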

How the results depend on the processing

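Of the log2 fold changes and curves followed for single genes across the alternatives, 333 kept their direction and their side of the threshold, 51 lost the call, 26 gained it and 4 reversed. The reversals came from scaling on 4 adipocyte markers: at 4PM Gpat4 (-0.40), Agpat3 (-0.44) and Dgat1 (-0.14), and at 12AM Agpat3 (-0.33). That scaling moved the median of all genes to -1.26 at 4PM and -0.87 at 12AM, relative to which Agpat3 was higher by 0.82 and 0.54. Of all calls at 4PM it left 32 higher and 6298 lower (0.506% higher), against 1306 and 1751 (42.7%), and in the daily mean 95 and 1525 (5.86%) against 535 and 547 (49.4%).

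Counts of the 10 genes called changed as follows, and the cause was not tested. The number of all genes called changed with the setting too. For the diet contrasts it is given in brackets after an alternative, as higher and lower. For the other tests it is given for the main fit, and for fits without 1 library where stated. At 8AM (0) both marker covariates (70 and 14) gave 3, and at 12PM (0) the lymphocyte covariate (98 and 12) gave 1. At 4PM (4) no filter (596 and 1062), adipocyte scaling (32 and 6298), the lymphocyte covariate (0 and 0) and both covariates (6 and 5) gave 0. Leaving out 1 library of that time gave 0 to 3, with 408 to 2451 of all genes called. At 8PM (0) limma voom (813 and 2900) gave 1 and both covariates (1623 and 4136) gave 2. The fit without TAN 8PM replicates 1 and 2 (996 and 1349) gave 6. Leaving out 1 library gave 0 to 2, with 1015 to 3035 of all genes called. At 12AM (0) DESeq2 (394 and 168) and the fit without those replicates (65 and 17) gave 1. Leaving out 1 library gave 0 to 2, with 8 to 871 of all genes called. The daily mean (4) had 2 with adipocyte scaling (95 and 1525) and 7 without those replicates (1205 and 1462). It had 0 with a log2 fold change beyond 1 and 3 to 5 without 1 library, with 559 to 1693 of all genes called in the latter fits. Variation over time in TAN (4, with 4603 of all genes called) had 2 with no filter or the lymphocyte covariate and 7 with adipocyte scaling or voom. It had 1 in separate fits, 8 with both covariates and 2 to 8 without 1 library. The 8 came without TAN 8PM replicate 4, where 7514 of all genes were called. The fits without 1 library that gave 2 called 2999 to 3931 of all genes. The change of the diet effect over time (0, with 1793 of all genes called) had 1 with DESeq2 and 5 without those replicates. It had 3 with both covariates and 0 to 1 without 1 library. The 24-h curve in TAN (1, with 3965 of all genes called) had 2 with at least 10 counts, RLE factors or DESeq2. That curve had 3 with adipocyte scaling or without those replicates, 7 with both covariates and 0 to 2 without 1 library. Its difference between diets (1, with 4027 of all genes called) had 0 with adipocyte scaling or voom and 2 with the lymphocyte covariate. That difference had 5 without those replicates, 4 with both covariates and 0 to 3 without 1 library. The 12-h curve in TAN (1, with 414 of all genes called) had 0 with no filter, the lymphocyte covariate, separate fits or without those replicates. That curve had 4 with adipocyte scaling, 2 with both covariates and 0 to 4 without 1 library. At 4AM, for time and both curves in ad-lib mice and for the 12-h difference, the alternatives run gave 0.

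The replicate block left every count as it was (4 at 4PM, 4 in the daily mean and 4 over time in TAN). Same-numbered libraries did not deviate together (median correlation -0.0127, range -0.586 to 0.844 over 24 pairs, 10 of them above 0.1), so the numbers were not read as pairs. A rule to leave out libraries with outlying lymphocyte markers met 0 libraries and was not run.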
